A study of Mus musculus with 17 samples.

Results

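The effect of an antibiotic given before colitis was examined in wild-type mice by comparing 3 colon macrophage preparations from mice given an antibiotic and then dextran sulfate sodium (DSS) with 3 from mice given DSS alone, 6 of the 17 libraries of the series. The first group, PP, received a broad spectrum antibiotic for 7 days and then DSS for 6 days (replicates 10, 11 and 12). The second, NP, received DSS for 6 days without the antibiotic (replicates 7, 8 and 9). All 6 libraries came from C57BL/6(h-2b) mice aged 8 weeks, and the titles give each library its own mouse number. Both groups shared DSS, and no library of the series is labelled as antibiotic without DSS. The antibiotic itself is not named in the labels. Libraries of 3 wild-type mice with no treatment named (NN) are given as context, and 3 NP and 3 PP libraries of mice deficient in MCJ, the product of Dnajc15, serve as a second comparison of the same treatments. The labels describe digestion of the colon with collagenase IV and washing, and name no sort of the cells, so each library is a bulk measurement of a preparation.

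DSS, given to provoke colitis, damages the lining of the colon and lets bacteria reach the tissue below it. Broad spectrum antibiotics thin out the gut bacteria, which supply colonocytes with short-chain fatty acids and give the epithelium and the macrophages beneath it a constant microbial signal. Colon macrophages arise largely from blood monocytes that enter the mucosa, lose monocyte receptors and gain scavenging and antigen-presenting functions. In inflamed mucosa many of the entering cells instead make interleukin 1, TNF and chemokines.

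Of 16958 genes tested across the series, 513 (3.03%) rose and 169 (0.997%) fell in PP relative to NP at an adjusted p under 0.05 (quasi-likelihood test of edgeR, Benjamini-Hochberg adjusted over all genes tested). The genes that rose were led by macrophage, monocyte and eosinophil genes, innate receptors, cytokines and phagocyte enzymes, with a median log2 difference of 3.88. Those that fell included colonocyte transporters, metabolic enzymes and the posterior patterning gene Hoxd13, with a median of -1.26. The median over all genes tested was 0.06, and 53.0% of them were above 0. An unadjusted p under 0.05 was reached by 2800 of them. The 3 PP libraries did not overlap the 3 NP libraries for 470 of the genes called higher and 168 of those called lower, where 11.6% and 10.8% of all genes tested were separated in that way in each direction. Against NN, a comparison that shares the PP libraries, the PP mean was higher for 512 of the 513 genes that rose and lower for all 169 that fell.

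How many genes passed depended on single libraries. Instead of 682 genes (4.02%), 12 (0.0711%) were called without NP replicate 7, 136 and 146 without NP replicates 8 and 9, and 129 and 216 without PP replicates 10 and 12. Without PP replicate 11 the number was 1315 (7.8%), of which 905 (5.36%) were higher and 410 (2.43%) lower. A fit of the 6 libraries alone called 17 genes (0.118%), with 2801 at an unadjusted p under 0.05. DESeq2 on all 17 libraries called 1458 (9.53%), 7.03% higher and 2.5% lower, among them all 682 genes called here. Leaving out any of the 6 libraries turned the sign of 0 of the 682 genes and left all 682 at an unadjusted p under 0.05. The genes called whichever library was left out numbered 11, among them Ccl9, Nlrp3, Fgl2, Fyb, Rgs1, Rgs2, Pllp, Slc6a8, Atp6v0e2 and the predicted gene Gm11538. Of 127 called genes that belong to the 48 lists described here, 2 stayed called without NP replicate 7, 24 and 34 without NP replicates 8 and 9, 42 and 62 without PP replicates 10 and 12, and 126 without PP replicate 11. The list counts without PP replicate 11 given below are thus from the omission that kept most calls. Without NP replicate 7 the macrophage, Fc receptor, Toll-like receptor and MHC class II lists each had 0 called genes, as in the 6 libraries alone. All list counts below stand against 3.03% higher and 0.997% lower among all genes tested.

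**Figure D1:**
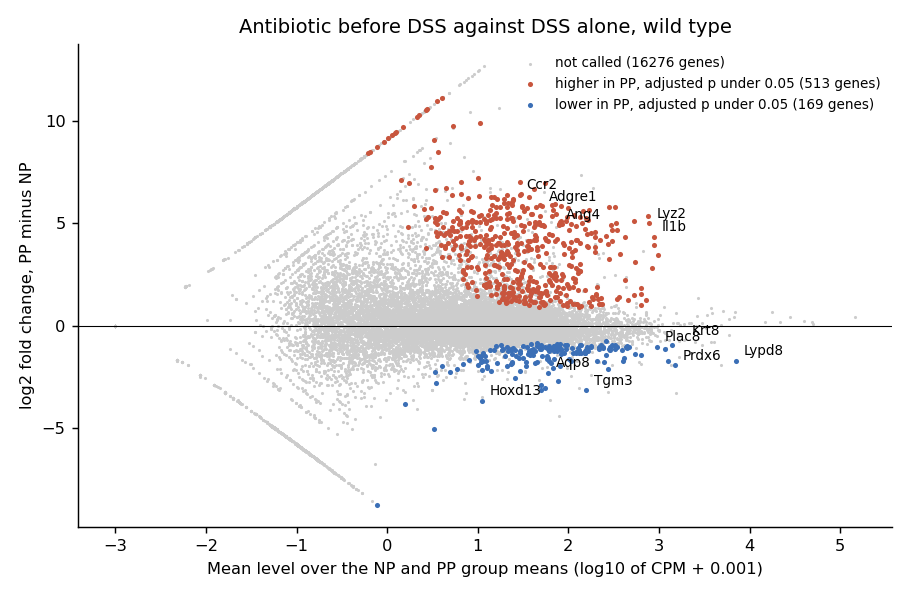
Each point is a gene tested, plotted by its mean level over the NP and PP group means (log10 of CPM plus 0.001, where CPM are counts scaled to library size) and its log2 fold change, PP minus NP. The 513 genes called higher reach far larger differences than the 169 called lower, and the diagonal lines are genes without counts in nearly all libraries of a group, whose fitted fold change depends on the prior count of the fit.

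The preparations held both leukocyte and epithelial RNA, and PP replicate 11 stood apart from the other 2 PP libraries. Depth was 32505339 to 35952405 counts in NP and 30645828 to 36461771 in PP. The 14 macrophage markers, none of them at 0 in either group, summed to 122.3 to 172.2 CPM (counts scaled to library size, here to the nuclear counts) in NP and to 5555.2, 846.7 and 6394 CPM in PP replicates 10, 11 and 12. The 14 colonocyte markers summed to 27000.7 to 34230 CPM in NP and to 15789.9, 28033.8 and 17933.7 CPM in PP. The 4 red blood cell markers summed to 150.8, 87.5 and 103 CPM in NP and to 558.2, 594.4 and 451.3 CPM in PP, separate groups with replicate 11 the highest. These sums are not scaled for gene length. The PP libraries with the highest macrophage sums thus had the lowest colonocyte sums, and replicate 11 had the lowest macrophage and the highest colonocyte sum of its group. It also had the lowest PP level for 496 of the 513 genes that rose and the highest for 145 of the 169 that fell. In bulk samples more cells of a type and more RNA per cell cannot be told apart, and the part of these sums in the results below was not tested. All 6 libraries held the Y-linked transcript Ddx3y, at 7.77 to 74.4 CPM, and at most 0.226 CPM of Xist, the transcript of the inactive X chromosome. Xist was at 53.5 to 110.4 CPM in NN replicates 1 and 2 and in MCJ-deficient NP replicate 21. Dnajc15, which both groups carry intact, was at 39.2, 38.4 and 35 CPM in NP and 27.4, 23.7 and 28.4 CPM in PP, a log2 difference of -0.50 ± 0.51 (SE) that did not pass the test (adjusted p = 0.737).

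**Figure D2:**
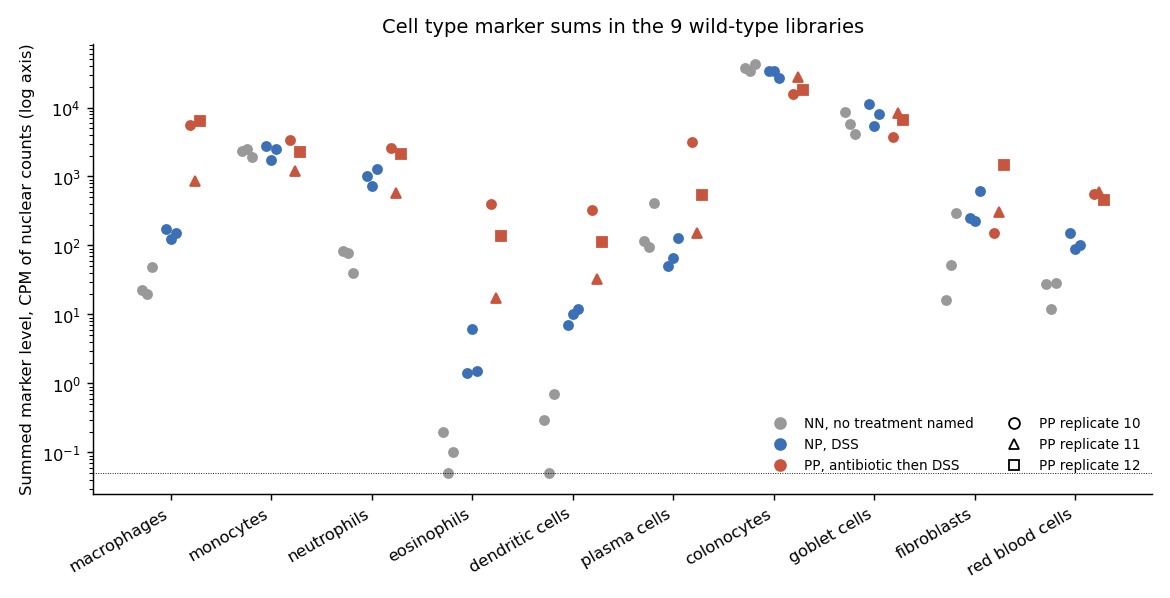
Summed level of each marker list in the 9 wild-type libraries, in CPM of nuclear counts on a log axis (points on the dotted line are 0). Macrophage, eosinophil and dendritic cell sums are higher in each PP library than in each NP library, PP replicate 11 (triangle) is the lowest of the PP libraries for these lists, and the colonocyte sum is lowest in PP replicates 10 and 12.

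From here on, levels of single genes are CPM scaled by TMM (trimmed mean of M values). They are in the order of replicates 7, 8 and 9 for NP and 10, 11 and 12 for PP. Differences are log2 fold changes, PP minus NP, each with an approximate standard error. That error, also for Dnajc15 above, is the size of the difference divided by the square root of the F statistic of its test. Macrophage identity genes were higher in PP. Adgre1, which encodes the surface marker F4/80, was at 1.55, 2.61 and 1.14 CPM in NP and at 166, 18.3 and 117 CPM in PP. The groups did not overlap, replicate 11 being the lowest of PP, and the log2 difference was 5.83 ± 0.88 (adjusted p = 0.00709). C1qb, a chain of the complement recognition protein C1q that tissue macrophages secrete, was at 1.68, 0.685 and 2.31 CPM and at 102, 21.6 and 136 CPM. Its lowest PP library was again replicate 11, still above every NP library, and the difference was 5.80 ± 0.82 (adjusted p = 0.00705). Of the 14 macrophage markers 7 rose and none fell, where 3.03% of all genes tested rose. The median over the 14 was 4.95 where all genes tested had 0.06, and 10 rose without PP replicate 11 against 0 without NP replicate 7. The other genes that rose were Cd68, a lysosomal membrane protein, Fcgr1, the high-affinity Fc receptor, the remaining C1q chains C1qa and C1qc, and the lysozyme Lyz2, by 5.49 for Fcgr1 and 4.99 for Lyz2. Csf1r, the receptor for the growth factor that macrophages need, was at 1.9, 0.685 and 3.97 CPM and at 187, 28.2 and 106 CPM, a difference of 5.60 ± 1.45 that missed the threshold (adjusted p = 0.0536). Mertk, a receptor for dying cells, gave 0.67 ± 0.47 (adjusted p = 0.54).

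The region before C1qb (gene 12260, chr4:136880126-136886200 in GRCm38) carries a match to the core of the site bound by PU.1, the factor that macrophage genes depend on, and PU.1's own gene Spi1 rose by 3.94 ± 0.77 (adjusted p = 0.0123). Spi1 was chosen after its values were seen. The 250 bases before the C1qb start, at chr4:136886201-136886450 on the minus strand of GRCm38 (RefSeq), are shown with the match GAGGAA in capitals.
C1qb promoter: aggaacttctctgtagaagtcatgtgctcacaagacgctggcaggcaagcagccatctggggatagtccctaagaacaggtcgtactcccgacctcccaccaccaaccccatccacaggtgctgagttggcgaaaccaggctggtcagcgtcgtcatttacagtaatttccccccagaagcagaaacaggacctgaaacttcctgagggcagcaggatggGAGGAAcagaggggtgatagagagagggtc
On either strand, GAGGAA was found in the same window of 143 of 401 genes called higher (35.7%), 31 of 134 called lower (23.1%), 5 of 9 macrophage markers (55.6%), 5 of 12 colonocyte markers (41.7%), and 22.9% of the 12487 tested genes with a promoter in the RefSeq table. A match is a run of letters and not a measured binding site.

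Monocyte genes were higher too. Ccr2, the receptor that draws monocytes from blood into tissue, was at 0.387, 1.13 and 0.502 CPM in NP and at 93.2, 5.62 and 72.7 CPM in PP. The groups were separate although replicate 11 was far below the other PP libraries, and the difference was 6.39 ± 0.99 (adjusted p = 0.00846). Of 8 monocyte markers 5 rose, among them Ccr2, Vcan, F10 and Chil3, whereas Plac8 fell, and the median was 3.90. Without replicate 11, 6 rose. Plac8, which epithelial cells also express, was at 1636, 908 and 1299 CPM and at 783, 551 and 545 CPM, a difference of -1.03 ± 0.29 (adjusted p = 0.0484), and it was no longer called without replicate 11 (adjusted p = 0.0959). Ly6c2, the marker of classical monocytes, gave 0.79 ± 0.73 (adjusted p = 0.698), its replicate 11 lying below every NP library.

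Eosinophil markers were low in NP. For 4 of the 5 tested every PP library lay above every NP library, where 11.6% of all genes tested were separated upward. Ccr3, the eotaxin receptor of eosinophils, was at 0.355, 1.66 and 0.434 CPM and at 185, 5.67 and 57.5 CPM, and Siglecf, an inhibitory sialic acid receptor on these cells, was at 0, 0.29 and 0.137 CPM and at 28.5, 1.71 and 8.19 CPM. All PP libraries lay above all NP libraries for both genes, with differences of 6.65 ± 1.19 and 6.43 ± 1.41 (adjusted p = 0.0122 and 0.0165). Of 5 eosinophil markers tested 3 rose, the third being Ear2, an eosinophil ribonuclease with 3 counts in all of NP, whose ratio of counts was 216 (95% counting interval 73.4 to 1050). The median of the 5 was 6.65, and 4 rose without replicate 11. Epx, the eosinophil peroxidase, had 0 counts in NP and too few in PP to be tested. Alox15, a lipoxygenase of eosinophils and of alternatively activated macrophages, was at 0.0967, 0.369 and 0.822 CPM and at 127, 4.23 and 42.4 CPM, a difference of 7.03 ± 1.24 (adjusted p = 0.0105). Replicate 10 was the highest and replicate 11 the lowest of PP for each of these genes.

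Fewer genes passed in the other leukocyte lists. Neutrophil markers S100a8 and S100a9, the subunits of calprotectin, gave -0.00 ± 0.63 and 0.10 ± 0.63 (adjusted p = 1 and 0.986), with overlapping groups. Among 12 neutrophil markers tested, Csf3r, the receptor for granulocyte colony-stimulating factor, and Trem1, an amplifying receptor of myeloid cells, rose, and 5 rose without replicate 11. Of 8 dendritic cell markers 2 rose, Itgax (5.61) and the lymph node homing receptor Ccr7 (3.74), while Flt3 gave 2.61 ± 1.65 (adjusted p = 0.478). For T and NK cells 1 of 11 markers rose, Il7r, where 3.03% of all genes tested rose. Cd3e, a chain of the T cell receptor complex, gave 0.19 ± 1.54 (adjusted p = 0.994). Plasma cell genes ranged widely within PP. Igha, the constant region of IgA, was at 0.935, 5.27 and 4.4 CPM in NP and at 973, 27.7 and 115 CPM in PP, and Jchain, which joins IgA units, was at 0.935, 1.16 and 1.28 CPM and at 264, 7.62 and 45.3 CPM. Their log2 differences of 6.71 ± 2.41 and 6.54 ± 2.23 did not pass the test (adjusted p = 0.175 and 0.149), and 0 of 6 plasma cell markers were called by edgeR, against 3 at an unadjusted p under 0.05, 3 by DESeq2 and 1 by edgeR without replicate 11.

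Receptors for microbial products formed the function list with the second-highest share of called genes. Of 21 Toll-like, NOD and C-type lectin receptors and their adaptors, 10 rose, none fell, and the median was 3.10. Without replicate 11 the number was 13. Tlr2, which senses bacterial lipoproteins, was at 22.6, 29.7 and 39.5 CPM in NP and at 309.8, 67.6 and 269 CPM in PP. The groups were separate, with replicate 11 closest to NP, and the difference was 2.82 ± 0.43 (adjusted p = 0.00705). Tlr13, a sensor of bacterial ribosomal RNA, was at 1.58, 1.82 and 1.94 CPM and at 137, 14.4 and 81 CPM, and rose by 5.44 ± 0.79 (adjusted p = 0.00709). Tlr7, a sensor of single-stranded RNA, rose by 6.17, Cd14, which hands lipopolysaccharide to its receptor, by 3.10, and the fungal lectin receptors Clec7a, Clec4e and Clec4n by 4.96, 4.66 and 4.23. Tlr4, the lipopolysaccharide receptor itself, was at 19.8, 15.3 and 9.08 CPM and at 24.2, 23.9 and 23 CPM, and its difference of 0.69 ± 0.38 did not pass (adjusted p = 0.39). Nod2, a sensor of bacterial cell wall fragments, gave 2.28 ± 0.68 (adjusted p = 0.068).

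Fc receptors and phagocytosis genes held the highest share of called genes among the function lists, 15 of 22, with none lower and a median of 3.95. Fcgr3, an activating Fc receptor, was at 15.8, 9.3 and 8.19 CPM in NP and at 494, 49.7 and 336 CPM in PP, with a difference of 4.73 ± 0.80 (adjusted p = 0.00937). Msr1, a scavenger receptor for modified lipids and bacteria, was at 0.999, 1.32 and 2.53 CPM and at 157, 8.51 and 120 CPM. Its PP libraries all lay above NP, the difference was 5.87 ± 0.95 (adjusted p = 0.00843), and the lipid receptor Trem2 rose by 6.35. Both Fcgr2b, the inhibitory Fc receptor, and Fcgr4, an activating one, rose, by 5.15 and 4.05. Fc receptor genes resemble each other, so reads may be shared among them. The scavenger receptor Marco gave 1.32 ± 1.61 (adjusted p = 0.804) on levels of at most 0.862 CPM. Among complement genes 8 of 18 rose, with C3ar1 and C5ar1, the receptors for the anaphylatoxins, at 6.28 and 3.09, while C3 gave 0.91 ± 1.16 (adjusted p = 0.821). Without replicate 11 the counts were 16 of 22 and 9 of 18.

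Cytokines rose on both the inflammatory and the restraining side. Il1b, an inflammatory cytokine that needs cleavage before release, was at 85.9, 101 and 66.2 CPM in NP and at 2800, 435 and 1855 CPM in PP. Every PP library exceeded every NP library, and the difference was 4.33 ± 0.68 (adjusted p = 0.00731). Il10, which restrains macrophages and T cells in the gut, was at 8.54, 5.3 and 4.06 CPM and at 406, 47 and 400 CPM. Replicates 10 and 12 were close together and replicate 11 far lower, though above NP, and the difference was 5.58 ± 0.87 (adjusted p = 0.00808). Of 22 cytokine genes and antagonists 9 rose and Il18 fell, with a median of 2.44, and 11 rose without replicate 11. The others that rose were Il1a (5.77), Il1rn, the antagonist of the interleukin 1 receptor (2.83), Tnf (2.67), Osm (3.50), Il12b (6.62), Il23a (5.14) and Ifnb1 (7.01). Il6 was at 22.1, 15.7 and 21.8 CPM and at 75.7, 9.9 and 86.7 CPM, and its difference of 1.53 ± 0.97 did not pass (adjusted p = 0.492).

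Il18, a cytokine that colonocytes make constantly and whose level is known to follow gut bacteria, went the other way. It was at 186, 158 and 217 CPM in NP and at 62.6, 89.9 and 67.5 CPM in PP, with NN at 312, 413 and 243 CPM. The PP libraries lay below both other groups, and the difference from NP was -1.35 ± 0.33 (adjusted p = 0.0281). Nlrp3, the sensor of the inflammasome that processes interleukin 1 and interleukin 18, was at 3.42, 6.25 and 9.36 CPM and at 128, 25.9 and 95.7 CPM, rose by 3.71 ± 0.51 (adjusted p = 0.00387) and stayed called whichever library was left out. Casp1, the inflammasome protease, gave -0.28 ± 0.31 (adjusted p = 0.764). Of 13 inflammasome genes 3 rose and 1 fell.

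Of 27 chemokines 5 rose (Ccl3, Ccl6, Ccl9, Cxcl2 and Cxcl16), none fell, and the median was 2.22. Ccl9, a monocyte and dendritic cell attractant, was at 24.9, 15.3 and 16.5 CPM in NP and at 564, 60.9 and 505 CPM in PP. Replicate 11 lay above all NP libraries but far below the other PP libraries, and the difference was 4.32 ± 0.60 (adjusted p = 0.00705). Cxcl2, which attracts neutrophils, was at 116, 121 and 260.5 CPM and at 2892, 374 and 2118 CPM, with a difference of 3.43 ± 0.77 (adjusted p = 0.0282). Without replicate 11, 10 chemokines rose. Ccl20, an attractant that the epithelium makes in response to bacteria, was at 32.7, 28.4 and 29.5 CPM in NP and at 5.24, 7.44 and 7.68 CPM in PP. Its groups were tight and separate, but the difference of -2.15 ± 0.63 did not pass the test in all 17 libraries (adjusted p = 0.0628). It passed in the 6 libraries alone (0.0416), in the 12 NP and PP libraries (0.0464) and with DESeq2 (0.0155). In the TNF and NF-kB list 9 of 25 rose, with a median of 1.85, and 17 rose without replicate 11. They included the signalling adaptor Traf1 (2.99) and the subunit Nfkb1 (2.13). They also included 5 genes of the NF-kB inhibitor family by name, Nfkbia, Nfkbib, Nfkbid, Nfkbie and Nfkbiz, between 1.25 and 3.60.

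Of the genes of MHC class II, which shows peptides to helper T cells, 5 of 12 rose, with a median of 3.82. H2-Ab1, a class II chain, was at 41.7, 33.1 and 22.3 CPM in NP and at 887, 144 and 504 CPM in PP, a difference of 3.98 ± 0.61 (adjusted p = 0.00709) with no overlap. H2-Eb1, another chain, rose by 4.32, the invariant chain Cd74 by 3.51 and the costimulator Cd40 by 5.78. H2-Aa was at 173, 67.1 and 57.5 CPM and at 2016, 292 and 1426 CPM, and its difference of 3.65 ± 0.97 missed the threshold (adjusted p = 0.0569). Without replicate 11, 9 of 12 rose.

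Among 24 interferon-stimulated genes 1 rose, a share near the 3.03% of all genes tested. The median was 1.33, and 21 were above 0. All PP libraries lay above NP for 8 of the 24, a larger share than the 11.6% of all genes. The gene that rose was Rsad2, which encodes the antiviral enzyme viperin (3 without replicate 11). Rsad2 was at 3.48, 4.27 and 3.83 CPM in NP, 101, 9.29 and 39.8 CPM in PP and 7.41, 12.9 and 6.27 CPM in NN. Replicate 11 fell within the NN range, and the difference of PP from NP was 3.69 ± 0.69 (adjusted p = 0.0122). Ifnb1, which encodes interferon beta, was at 0.129, 0 and 0.16 CPM and at 21.5, 1.45 and 15.8 CPM, with a difference of 7.01 ± 1.27 (adjusted p = 0.00818). Isg15 and Ifit1, an interferon-induced modifier and a binder of viral RNA, gave 3.09 ± 0.93 and 2.32 ± 0.99 (adjusted p = 0.0902 and 0.251). The 250 bases before the Rsad2 start, at chr12:26456453-26456702 on the minus strand of GRCm38, are shown because they hold a match to the interferon response motif, 2 copies of GAAA with any 2 bases between them, here on the opposite strand and in capitals.
Rsad2 promoter: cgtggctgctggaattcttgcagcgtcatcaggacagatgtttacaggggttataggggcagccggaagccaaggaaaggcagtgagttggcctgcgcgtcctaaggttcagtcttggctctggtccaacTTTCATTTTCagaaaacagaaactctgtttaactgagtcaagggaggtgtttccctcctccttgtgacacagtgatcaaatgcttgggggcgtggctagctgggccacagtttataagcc
On either strand this motif was found in 10 of 17 interferon-stimulated genes with a promoter in the table (58.8%), 5.99% of genes called higher, 0.746% of genes called lower and 2.85% of tested genes.

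Genes of alternative activation, the state linked to repair and to type 2 immunity, rose beside the inflammatory ones, with 7 of 18 called, none lower and a median of 4.44 (9 without replicate 11). Retnla, a secreted product of alternatively activated macrophages, was at 0.935, 0.343 and 0.251 CPM in NP and at 28.8, 4.84 and 17 CPM in PP. All PP libraries lay above NP, and the difference was 5.05 ± 0.99 (adjusted p = 0.0119). Chil3, a chitinase-like protein, was at 7.38, 10.9 and 2.12 CPM and at 669.9, 4.81 and 327 CPM, its replicate 11 falling inside the NP range, and the difference was 5.62 ± 1.31 (adjusted p = 0.0363). Chil3 and Chil4 are close copies, so the split of their counts is uncertain. Arg1, which consumes arginine, gave 3.52 ± 1.29 (adjusted p = 0.182). In the prostaglandin and lipoxygenase list 3 of 16 rose, Alox15, Alox5 (5.65) and Ptgs2, the inducible prostaglandin synthase, at 18.3, 24.1 and 37.5 CPM in NP and 1358, 122 and 524 CPM in PP (4.65 ± 0.95, adjusted p = 0.0205).

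Among called genes whose symbol is informative and whose normalized counts averaged 50 or more, the 15 largest fitted increases were mostly of genes with few or no counts in NP, for which the fitted value depends on the prior count of the fit. Spic (gene 20728, chr10:88675269-88683023), the factor of macrophages that recycle iron from red cells, had 0 counts in NP and was at 14.2, 1.42 and 8.62 CPM in PP, at least 293-fold higher against a floor of 3 counts over the NP group (adjusted p = 0.00709). The same bound was 257-fold for Cst7, an inhibitor of lysosomal proteases, 198-fold for Atp6v0d2, a proton pump subunit of macrophages and osteoclasts, and 160-fold for the lipid receptor Gpr18. H2-M2, a nonclassical MHC gene, and Slamf6, a leukocyte receptor, were at least 204-fold and 108-fold higher. Genes of macrophage fusion were among those seen only in PP or nearly so. Dcstamp, a receptor needed for cell fusion and chosen after its values were seen, was at least 88.8-fold higher, and its relative Ocstamp, with 2 counts in NP, had a ratio of counts of 395 (95% counting interval 109 to 3270). Rasgrp1, an activator of Ras in lymphocytes, Ighv10-1, an immunoglobulin segment, and Abcg3, a transporter, with 1, 2 and 1 counts in NP, had ratios of 1140 (204 to 45100), 1150 (318 to 9510) and 715 (128 to 28300). The lectin Clec12a and the integrin Itga4 completed the 15 with Alox15, Ear2 and Ifnb1, at 7.20 and 6.94. For 22 of the 513 genes called higher, NP held at most 3 counts, and the counting intervals cover counting error only.

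Some effector and scavenging genes of phagocytes rose as well. In the lysosome list 10 of 25 rose, none fell, and the median was 0.99, with Lgmn, an endopeptidase, at 3.37 and Ctsb, a cathepsin, at 1.48. Cybb, the catalytic subunit of the phagocyte NADPH oxidase, was at 6.16, 1.55 and 2.03 CPM in NP and at 263, 15.1 and 111 CPM in PP (5.33 ± 1.03, adjusted p = 0.0169), and its partners Ncf1 and Ncf4 rose by 4.44 and 4.33. The list of this oxidase with antioxidant enzymes had 6 of 22 higher and 1 lower, Noxo1, an organizer of the epithelial oxidase (-1.01). Acod1, which makes itaconate in activated macrophages, rose by 3.58 ± 0.67 (adjusted p = 0.0132). Hmox1, which degrades heme, was at 11.7, 15 and 27.1 CPM and at 166, 29.5 and 155 CPM, and its difference of 2.70 ± 0.80 did not pass (adjusted p = 0.0843). Of the matrix list 4 of 23 rose, among them Plau, an activator of plasminogen (3.82), and the collagenase Mmp13 (3.64). Without replicate 11 the counts were 15 of 25, 9 of 22 and 12 of 23.

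A small set of epithelial defence genes rose with the opposite order of PP libraries. Ang4 (gene 219033, chr14:51763892-51773590), an antimicrobial ribonuclease of Paneth and goblet cells, was at 5.58, 2.48 and 6.71 CPM in NP and at 64.9, 236 and 158 CPM in PP. All PP libraries exceeded all NP libraries, replicate 11 was the highest rather than the lowest, and NN was at 162, 136 and 128 CPM. The difference was 4.96 ± 0.71 (adjusted p = 0.00705). Retnlb, a goblet cell protein that kills bacteria and whose expression is known to follow colonization, was at 11.2, 18 and 21 CPM and at 119.5, 321 and 166 CPM, again highest in replicate 11 (3.59 ± 0.56, adjusted p = 0.00709). Itln1, a lectin for microbial sugars, was at 0.548, 0.501 and 1.16 CPM and at 4.11, 15.2 and 10.6 CPM (3.75 ± 0.80, adjusted p = 0.0144). Of the 513 genes that rose, 6 had their highest PP level in replicate 11, among them Ang4, Retnlb, Itln1, Ang5 and Plet1. Ang5, a second angiogenin, and Plet1, an epithelial surface protein, were chosen after their values were seen, and they rose by 5.31 and 1.61. Ang4 and Ang5 are close copies, so the split of their counts is uncertain.

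Across the 22 epithelial defence genes the picture was mixed, with 4 higher, 2 lower and a median of 0.40. Lypd8, a colonocyte protein that keeps motile bacteria off the epithelium, was at 17310, 9094 and 6170 CPM in NP and at 2350, 5206 and 2418 CPM in PP. Each PP library lay below each NP library, and the difference was -1.71 ± 0.42 (adjusted p = 0.0306). Il18 was the other gene that fell. Lyz1, the lysozyme of Paneth cells, was at 7.8, 7.43 and 4.7 CPM and at 358, 36.5 and 386 CPM, but it is a near copy of the macrophage lysozyme Lyz2 and had the same order of libraries, so its own share of these counts is uncertain. Reg3g, a bactericidal lectin, was at 173, 182 and 187 CPM and at 1036, 876 and 119 CPM. Replicate 12 lay below NP and the others above it, and the difference of 1.91 ± 0.71 did not pass (adjusted p = 0.184). Reg3b, its relative, gave 0.52 ± 0.77 (adjusted p = 0.861), Nos2, the inducible nitric oxide synthase, 0.93 ± 1.21 (adjusted p = 0.825), and Pigr, which carries IgA across the epithelium, -0.77 ± 0.26 (adjusted p = 0.118). Without replicate 11, 6 rose and 4 fell.

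**Figure D3:**
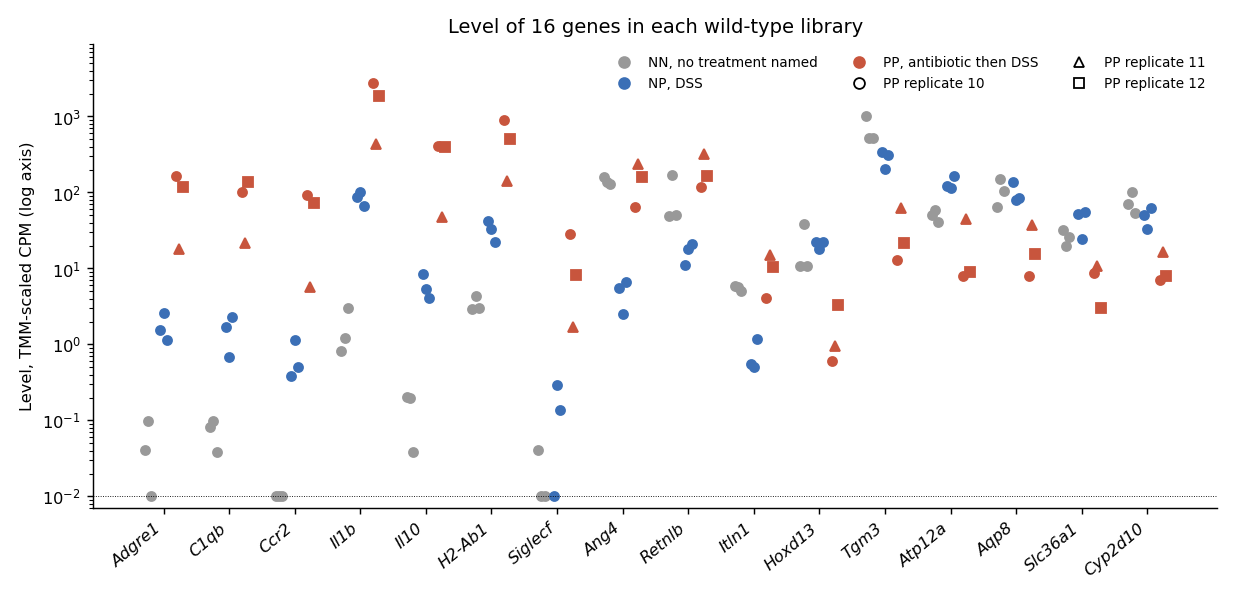
Level of 16 genes in the 9 wild-type libraries, in TMM-scaled CPM on a log axis (points on the dotted line are at or under 0.01). Macrophage, cytokine and eosinophil genes are lowest within PP in replicate 11 (triangle), Ang4, Retnlb and Itln1 are highest there, and the 6 genes on the right, which fell, lie below NP in every PP library.

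Sensors of bacterial metabolites and bile acids showed few calls. Among 21 genes of bile acid and xenobiotic handling 2 rose, where 3.03% of all genes tested did. They were Ahr, the receptor for aryl hydrocarbons and microbial indoles, and its target Tiparp. Ahr was at 3.51, 3.58 and 4.47 CPM in NP and at 62.5, 3.53 and 20.6 CPM in PP, where replicate 11 lay inside the NP range, and the difference was 2.90 ± 0.68 (adjusted p = 0.0247). Tiparp was at 25.2, 19.1 and 17 CPM and at 199.5, 39.1 and 128 CPM, with no overlap (2.58 ± 0.48, adjusted p = 0.0103). Of 13 genes for uptake and sensing of short-chain fatty acids and ketogenesis, 0 were called by edgeR, against 3 at an unadjusted p under 0.05 and 2, both lower, by DESeq2 and by edgeR without replicate 11. The butyrate transporter Slc5a8 was at 141, 154 and 144 CPM and at 44.7, 93 and 41.9 CPM, lower in all PP libraries, with a difference of -1.29 ± 0.42 (adjusted p = 0.0955), and Slc16a1, a second carrier, gave -0.69 ± 0.27 (adjusted p = 0.193).

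Among 21 genes of salt and water transport by colonocytes, 4 fell and none rose, where 0.997% of all genes tested fell. Of the 21, 16 were below 0, and the median was -0.76. Atp12a, the colonic proton and potassium pump, was at 120.1, 114 and 165 CPM in NP and at 7.92, 45.3 and 8.95 CPM in PP. The groups were separate with replicate 11 closest to NP, and the difference was -2.68 ± 0.59 (adjusted p = 0.0228). Aqp8, a water channel of surface colonocytes, was at 138, 79.1 and 83.7 CPM and at 8.02, 36.9 and 15.6 CPM (-2.31 ± 0.59, adjusted p = 0.0416). Car4, a carbonic anhydrase at the cell surface, fell by 1.77 ± 0.47 (adjusted p = 0.045) and Atp1b1, a sodium pump subunit, by 1.11 ± 0.26 (adjusted p = 0.0218). The chloride exchanger Slc26a3 was at 398, 281 and 122 CPM and at 95.2, 196 and 77.5 CPM, overlapping, with a difference of -1.12 ± 0.48 (adjusted p = 0.253). Aqp8 and Car4 were also the 2 of 14 colonocyte markers that fell, where 13 of 14 were below 0 and the median was -0.71. Without replicate 11, 6 transport genes and 6 colonocyte markers fell.

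The window before Aqp8 is shown beside that of C1qb because it carries the same letters although the gene fell. It lies at chr7:123462044-123462293 on the plus strand of GRCm38, and the match to GAGGAA, on the opposite strand, is in capitals.
Aqp8 promoter: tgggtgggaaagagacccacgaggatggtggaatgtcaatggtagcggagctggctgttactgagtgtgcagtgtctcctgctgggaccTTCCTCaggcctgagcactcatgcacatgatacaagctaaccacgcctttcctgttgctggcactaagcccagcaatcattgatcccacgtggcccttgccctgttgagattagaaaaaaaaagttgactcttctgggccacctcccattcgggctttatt
The corresponding windows of Spic and Slc36a1, among the largest changes in each direction, hold none of the 3 motifs searched, the third being CAAAGT, the core of the HNF4 site, which was found in 13.7% of genes called higher, 8.96% of genes called lower and 11.1% of tested genes.

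Under the same limits on symbol and counts, the 15 largest decreases included patterning, structural and metabolic genes. Hoxd13 (gene 15433, chr2:74668225-74671603), a homeobox gene that marks the posterior gut, was at 22, 17.8 and 22.4 CPM in NP and at 0.597, 0.956 and 3.3 CPM in PP, with NN at 10.6, 38.8 and 10.6 CPM. Its PP libraries lay far below both other groups, and the difference was -3.68 ± 0.71 (adjusted p = 0.00996). Tgm3, a transglutaminase, was at 345, 202 and 308 CPM and at 12.8, 61.9 and 21.9 CPM (-3.15 ± 0.72, adjusted p = 0.0305). The lysosomal amino acid transporter Slc36a1 (gene 215335, chr11:55204322-55236330) was at 51.4, 24.8 and 55.2 CPM and at 8.65, 10.6 and 3.05 CPM (-2.56 ± 0.44, adjusted p = 0.00709). Its NP and PP libraries were separate, and NN was at 31.8, 19.6 and 25.6 CPM. The others among the 15 were the receptor Ephb6 (-3.84), the troponin Tnni1 (-3.13), the enolase Eno3 (-3.03), the glycosyltransferase B3gnt7 (-2.92), the carrier Ttr (-2.81), the chloride channel Ano1 (-2.20), pyruvate carboxylase Pcx (-2.17), the opposite-strand transcript Pla2g10os (-2.28), Atp12a, Aqp8, Cyp2d13 and Cyp2d10. Without replicate 11, Ephb6 and Ttr were no longer called (adjusted p = 0.0764 and 0.086). Counts of Pla2g10os cannot be told apart from those of the gene it overlaps unless strand was used in counting.

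Cytochrome P450 genes of the Cyp2d family fell. Of 9 Cyp2d genes, which encode enzymes for drugs and other foreign compounds, 6 fell and none rose, where 0.997% of all genes tested fell. Cyp2d10 was at 50.2, 33.4 and 61.8 CPM in NP and at 7.13, 16.5 and 8.04 CPM in PP, with no overlap (-2.20 ± 0.39, adjusted p = 0.0071), and the 5 others fell by 1.66 ± 0.32 (Cyp2d34) to 2.28 ± 0.51 (Cyp2d13). These genes are near copies, so the division of their counts is uncertain, and the family was taken up after its values were seen. Slc6a8, the creatine transporter, was at 157, 106 and 128 CPM and at 26.4, 43.7 and 28.1 CPM. No gene of the comparison had a smaller adjusted p (-1.99 ± 0.26, adjusted p = 0.00208), and it was chosen after its values were seen. Selenbp1 and Prdx6, a sulfur-metabolizing enzyme and a peroxidase added in the same way, fell by 1.72 ± 0.32 and 1.93 ± 0.40.

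Complex I genes lay slightly and evenly lower in PP, although 1 passed the test. Of 35 nuclear genes for complex I, the first enzyme of the chain, 34 were below 0 and 28 had PP libraries all below NP, where 10.8% of all genes tested were separated downward. Their differences ran from -1.17 to 0.21 with a median of -0.75, and 1 fell, Ndufs5 (10 without replicate 11). Ndufs5 was at 129, 106 and 106 CPM in NP and at 44.2, 63.7 and 43.9 CPM in PP (-1.17 ± 0.26, adjusted p = 0.0159). Lower values were not particular to complex I. The other respiratory complexes were not a list here, but nuclear genes for them were also called lower. Examples, chosen after their values were seen, are Uqcrb (-0.99), Cox6c (-1.2) and Atp5k (-1.07). Cs, the citrate synthase that opens the TCA cycle, was at 305, 319 and 276 CPM and at 146, 197 and 121 CPM (-0.96 ± 0.22, adjusted p = 0.0199). The colonocyte marker median, -0.71, was of the same size, and the part of the epithelial share in these values was not tested. Mitochondrially encoded transcripts, in contrast, took 40.01, 40.91 and 32.25% of counts in NP and 38.73, 43.75 and 48.4% in PP. The means of 37.72 ± 4.76% and 43.63 ± 4.84% (SD, n = 3 each) differed by 5.9 percentage points, and the ranges overlapped (exact two-sided permutation p = 0.3, where 3 against 3 libraries allow 0.1 at the least). Of 13 mitochondrially encoded protein genes, 12 were above 0, with a median of 0.22, and 0 were called by edgeR or DESeq2 (1 at an unadjusted p under 0.05).

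**Figure D4:**
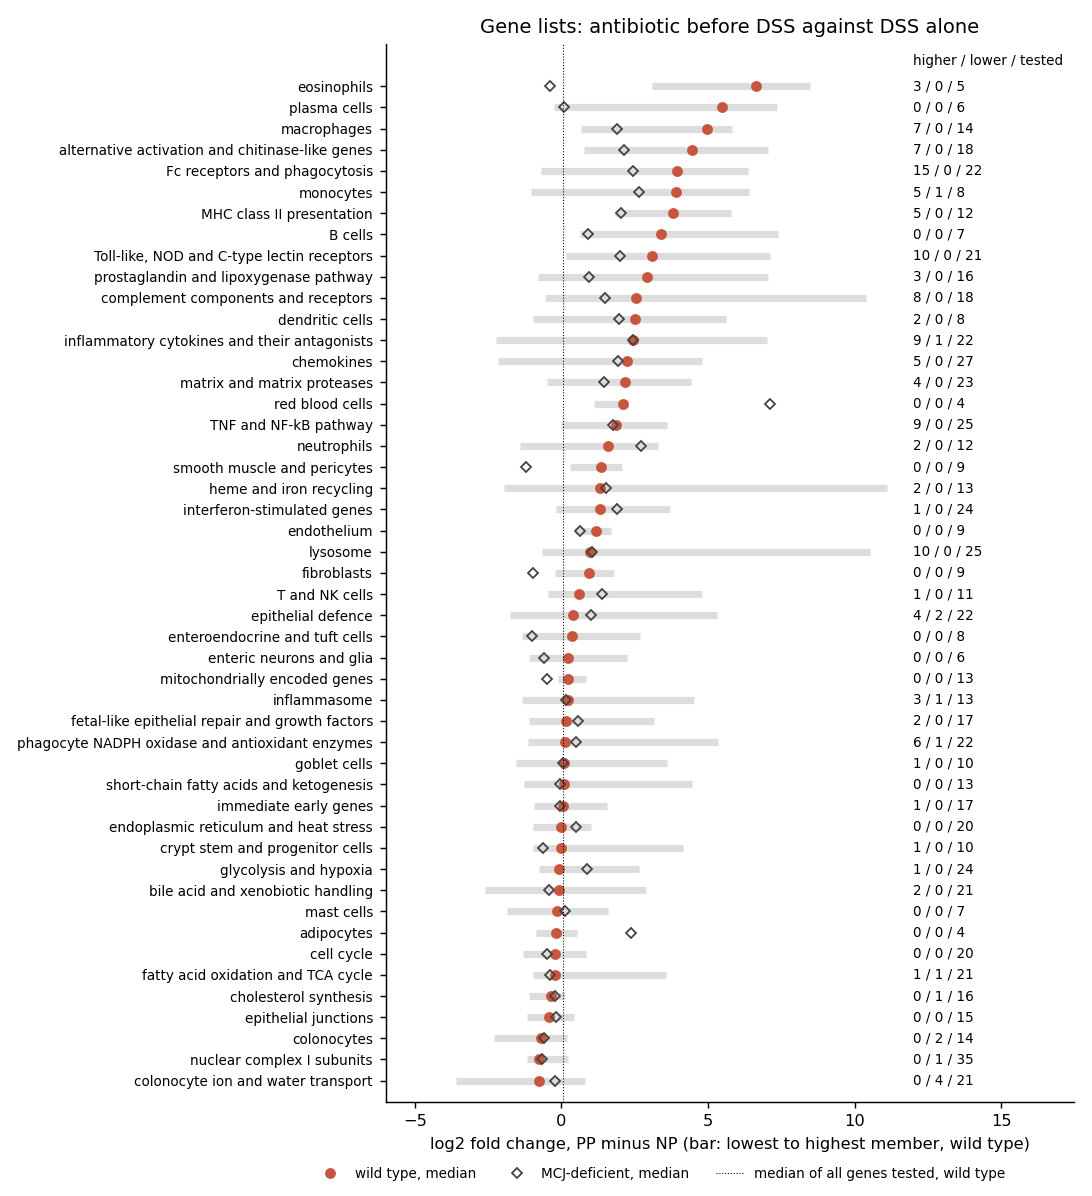
Median log2 fold change, PP minus NP, of each gene list in wild type (filled circle, with a bar from the lowest to the highest member) and in MCJ-deficient mice (open diamond), with the number of genes called higher, called lower and tested in wild type on the right. Eosinophils, plasma cells, macrophages, alternative activation, Fc receptors and monocytes lie at the top, the neutrophil, interferon and T and NK cell lists lie lower, and colonocyte transport, complex I and colonocyte marker lists lie at the bottom near -0.7. Bars reaching above 10 come from genes with 0 counts in NP, whose fitted values are no measured fold.

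Several lists held few called genes or none. In the fit of all 17 libraries, edgeR called no member of the lists of cell cycle (20 genes, median -0.21), epithelial junctions (15, -0.41), endoplasmic reticulum and heat stress (20, -0.01), fibroblasts (9, 0.93), smooth muscle and pericytes (9, 1.34), endothelium (9, 1.19), enteroendocrine and tuft cells (8, 0.36), mast cells (7, -0.16), B cells (7, 3.41), enteric neurons and glia (6, 0.24), adipocytes (4, -0.20) or red blood cells (4, 2.10). Of the 118 genes of these 12 lists, 18 had an unadjusted p under 0.05, as had 2800 of all 16958 genes tested. DESeq2 called 5 of the 118 higher and 1 lower, where it called 7.03% of all genes higher and 2.5% lower. Without PP replicate 11 edgeR called 3 higher and 4 lower, and in the 6 wild-type libraries alone it called 2 higher, both globins. Of the 4 red blood cell genes 3 had all PP libraries above NP, where 11.6% of all genes tested were separated upward. The globin Hba-a2 was at 42.5, 22.4 and 25.3 CPM in NP and at 165, 148 and 126 CPM in PP, a difference of 2.28 ± 0.68 with an adjusted p of 0.0838 in all 17 libraries, 0.0416 in the 6 alone and 0.00165 with DESeq2. Glycolysis and hypoxia genes had 1 of 24 higher, a share near the 3.03% of all genes tested, with a median of -0.07. The gene was the angiogenic factor Vegfa (1.55 ± 0.39, adjusted p = 0.0315). Cholesterol synthesis had 1 of 16 lower, the sterol oxidase Msmo1 (-1.09). Of the crypt stem and progenitor list 1 of 10 rose, Cd44, an adhesion receptor that leukocytes also carry, at 27.5, 37.4 and 32.7 CPM in NP and at 1150, 82.5 and 489 CPM in PP (4.14 ± 0.72, adjusted p = 0.0105). Immediate early genes had 1 of 17 higher, Ier3, a gene induced by stress and cytokines, and goblet cell markers 1 of 10, Retnlb, where the mucin Muc2 gave 0.29 ± 0.38 (adjusted p = 0.824). Beside shares of 3.03% higher and 0.997% lower among all genes tested, these single calls are not read as results about their lists. Of 17 genes of fetal-like repair and growth factors 2 rose, Plaur, the receptor of the protease Plau (2.26), and Il1rn.

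The same treatments in MCJ-deficient mice gave a contrast between 6 other libraries. Those libraries are not independent of the choice of genes, since they entered the filter and the shared spread of the fit, and the 6 wild-type libraries alone gave 17 calls. In those mice 60 genes (0.354%) were higher and 44 (0.259%) lower in PP. Of the 513 genes that rose in wild type, 499 (97.3%) were above 0 in MCJ-deficient mice, where 50.2% of all genes tested were, and 27 were called. Of the 169 that fell, 166 (98.2%) were below 0, against 49.2% of all genes, and 19 were called. The median differences of these genes in MCJ-deficient mice were 1.94 and -0.79. They were smaller in size than in wild type for 477 and 147 genes, which were chosen for their size in wild type. The macrophage markers summed to 605.6 to 2082.1 CPM in MCJ-deficient NP and to 2497.5 to 2898.5 CPM in MCJ-deficient PP. In wild type these sums were 122.3 to 172.2 CPM and 846.7 to 6394 CPM. The part of the higher NP sums in the smaller differences was not tested. Hoxd13 was at 2.83, 4.58 and 11.2 CPM in MCJ-deficient NP and 0.0483, 0.0533 and 0 CPM in PP (adjusted p = 0.00261). Nlrp3 and Retnlb also rose there, by 3.01 ± 0.50 (adjusted p = 0.0105) and 2.62 ± 0.54 (adjusted p = 0.0452).

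**Figure D5:**
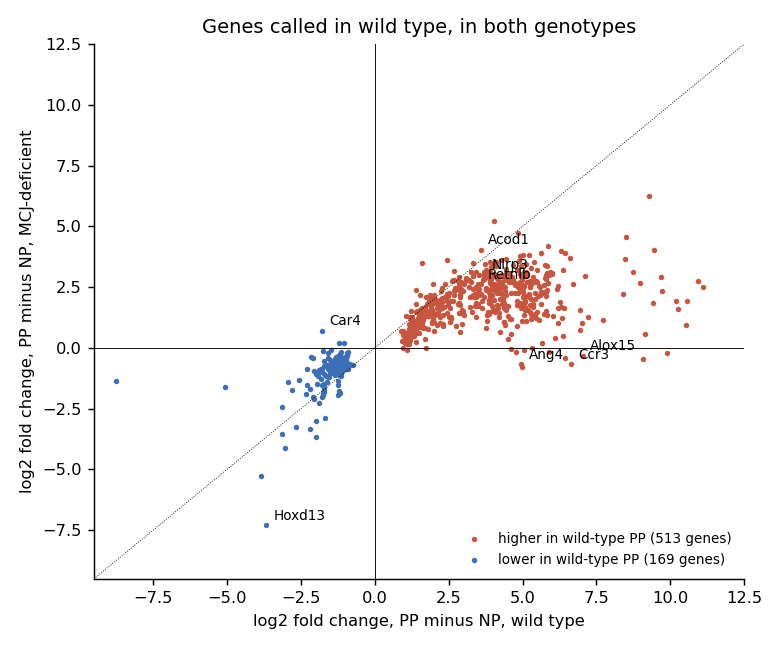
Log2 fold change, PP minus NP, of the 682 genes called in wild type, in wild type (horizontal) and in MCJ-deficient mice (vertical), with the dotted line marking equal values. Nearly all genes keep their sign, most increases lie under the line, and Ang4, Ccr3 and Alox15 lie slightly below 0 in MCJ-deficient mice.

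Whether the response differed between genotypes was tested directly. The difference of the 2 differences passed the threshold for 0 of 16958 genes (0.0%) by edgeR, with a smallest adjusted p of 0.185. There were 839 genes at an unadjusted p under 0.05, where 848 are expected by chance at that threshold. DESeq2 called 90 genes. Without wild-type PP replicate 11 edgeR called 22. Of the 5 named genes with the smallest p, Cd177, a surface protein of neutrophils and of colon epithelium, was at 26.3, 35.7 and 40.7 CPM in wild-type NP and 9.91, 25 and 12.3 CPM in PP, and at 12.7, 15.9 and 13.4 CPM and 60.9, 74.9 and 39.7 CPM in MCJ-deficient mice. The 2 genotypes had opposite signs, -1.12 ± 0.38 and 2.06 ± 0.39 (unadjusted p of the difference = 1.09e-05 in edgeR's test across all genes, adjusted p = 0.185). Ang4 was at 10.2, 25.3 and 69.5 CPM in MCJ-deficient NP and 18, 23 and 24.6 CPM in PP, a difference of -0.68 ± 0.61 against 4.96 ± 0.71 in wild type (adjusted p of the difference = 0.197). Ccl20 gave 2.00 ± 0.63 against -2.15 ± 0.63 (adjusted p = 0.41). The globins Hbb-b1 and Hba-a2, from red blood cells, gave 7.29 ± 0.81 and 7.12 ± 0.84 against 2.05 ± 0.64 and 2.28 ± 0.68 (adjusted p = 0.3 and 0.41). Red blood cell markers summed to 1002.5 to 16007.4 CPM in MCJ-deficient PP and to 451.3 to 594.4 CPM in wild-type PP. The eosinophil list had a median of 6.65 in wild type and of -0.4 in MCJ-deficient mice, where 2 genes were above 0 and 3 below. Its sum was 1.4 to 6.1 CPM in wild-type NP and 17.6 to 401.6 CPM in wild-type PP. In MCJ-deficient mice its sum was 13.6 to 56.6 CPM in NP and 20.6 to 22.1 CPM in PP. For 0 of its genes did the difference between genotypes pass the test, as for all genes.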

How the data were processed

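RNA of 17 mouse colon macrophage preparations was sequenced, and the authors deposited raw counts of 27179 genes, identified by NCBI gene number, in 3 tables (NN, NP and PP). The submitters' processing notes name CASAVA 1.8.2, FastQC, Trim Galore, STAR 2.5.4, the mm10 build and DESeq2. The counting program, annotation and strand setting are not given in the sources used here. The tables were merged by gene number. Symbols and GRCm38 coordinates came from RefSeq GRCm38.p6 (25275 genes) and GENCODE M21 (18), and the 1886 unnamed numbers, which took 1.39 to 3.48% of counts in the 6 libraries, stayed in the totals.

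Genes were filtered with filterByExpr, scaled by TMM and fitted with the edgeR 4.0.16 quasi-likelihood test (R 4.3.3) on all 17 libraries with 1 mean per genotype and condition, which leaves 11 residual degrees of freedom. Genes were called at a Benjamini-Hochberg adjusted p under 0.05 over the whole table. DESeq2 1.42.0 was an alternative, as were other scaling, filters, library sets and leaving out libraries. The procedure was also run on simulated counts with the same spread for every gene and known changes in wild-type PP. That setting is simpler than these libraries and does not show how the procedure performs on them. Mitochondrial shares were compared by exact permutation (scipy 1.17.1, Python 3.11.15). Marker sums use nuclear counts. Each library was taken as a separate animal. The titles give each wild-type library its own mouse number, while some mouse numbers recur between the MCJ-deficient NN and NP libraries.

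The naming rule takes the 15 largest increases and 15 largest decreases called, and the 5 genes with the smallest p for the genotype difference. These must have an informative symbol and normalized counts that average 50 or more in the 6 libraries. Without those limits it takes up to 5 called members per list and direction with the smallest p and the first 3 members of each list. Sex-linked genes are added as a check. Other genes named as examples are list members, and exceptions are marked where they appear. The comparison and the 48 lists (755 of 756 members found in the tables) were chosen with earlier results of these data known. Some genes that the rule names are not reported here.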

Additional observations from a re-analysis of the deposited data

How the results depend on the processing

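The 513 increases and 169 decreases (682 genes) became 12 and 5 (17) in the 6 wild-type libraries alone and 1076 and 382 (1458) with DESeq2. Leaving out each library in turn gave 12 to 1315 genes, with 8 to 905 higher and 4 to 410 lower. Of those settings, all but the one without PP replicate 11 lost calls, and the cause was not tested. When the 6 libraries alone were fitted with 1 of them left out and the spread pooled, an alternative chosen after seeing the data, 0 genes were called without each NP library (2153, 2440 and 2572 at an unadjusted p under 0.05 without replicates 7, 8 and 9). That fit called 2 without PP replicate 10 (2 higher, 0 lower), 1928 without replicate 11 (1387 and 541) and 2 without replicate 12 (1 and 1). The other settings stayed within 1.5 times: 923 genes with the 12 NP and PP libraries, 689 with the factors of DESeq2 in edgeR, 701 without mitochondrial counts, 640 without a filter and 703 with at least 10 counts per library. The difference between genotypes had 0 called genes, 90 with DESeq2, 1 without a filter (added after seeing the data) and 0 to 22 when a library was left out. The mitochondrial share differed by 3.17 to 8.35 points when a library was left out. Signs of small differences turned. S100a8 gave 0.01 in the 6 libraries, 0.07 with DESeq2, 0.07 with its factors, 0.04 with at least 10 counts and -0.31 to 0.41 when a library was left out. The same range was -0.23 to 0.45 for S100a9, -0.86 to 2.04 for Xist, -0.60 to 0.05 for Casp1, -0.35 to 0.71 for Cd3e, -5.0 to 4.02 for Marco and 0.00 to 0.51 for Muc2. No paired analysis was possible because the NP and PP libraries of wild type share no replicate or mouse number.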

Other observations

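Genes called whichever of the 6 libraries was left out were not confined to the lists. Rgs1 and Rgs2, which dampen signals from chemokine and other G protein-coupled receptors, were at 14.5, 5.14 and 4.31 and at 7.06, 5.75 and 4.95 CPM in NP and at 409, 63.7 and 234 and at 186, 24.8 and 112 CPM in PP, with log2 differences of 4.88 ± 0.79 and 4.19 ± 0.56 (edgeR, adjusted p = 0.00821 and 0.00387). Fgl2, which macrophages and T cells secrete, was at 23.8, 27.2 and 28.9 CPM and at 132, 62.4 and 124 CPM (2.00 ± 0.28, adjusted p = 0.00387), and Fyb, an adaptor of immune receptors, rose by 5.03 ± 0.71 (adjusted p = 0.00387). Pllp, a membrane protein of epithelial cells, was at 68.5, 60.9 and 80.8 CPM in NP, 11.6, 26.6 and 22.3 CPM in PP and 114, 127 and 116 CPM in NN (-1.79 ± 0.29, adjusted p = 0.00705). Atp6v0e2, a proton pump subunit, was at 19.5, 19.4 and 22 CPM in NP and 3.45, 7.38 and 3.78 CPM in PP. It fell by 2.06 ± 0.34 in wild type (adjusted p = 0.00705), while its difference in MCJ-deficient mice was -2.11 ± 0.34 (adjusted p = 0.0103). Transcription factors of myeloid cells outside the lists, chosen after their values were seen, rose as well, Irf5 by 5.04 ± 1.01, Tfec by 5.16 ± 0.78 and Zeb2 by 5.36 ± 1.09, and Il10ra, the receptor that answers interleukin 10, rose by 4.43 ± 0.84 (adjusted p = 0.0126, 0.00705, 0.0205 and 0.0105).

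HOX genes, homeobox genes that pattern the body axis, were taken up after Hoxd13 was seen. Of 29 tested 2 fell, Hoxd13 and Hoxd10, and none rose, 23 were below 0, 7 had PP libraries all below NP where 10.8% of all genes had, and the median was -0.93, where all genes tested had 0.06. Hoxd10 had 0 counts in PP and was at 3.55, 0.685 and 0.456 CPM in NP, at least 45.1-fold lower in PP against 3 counts over the group (adjusted p = 0.0306). Hoxb13 was at 86.9, 77.5 and 92.7 CPM in NP, 0.994, 22.4 and 9.31 CPM in PP and 141, 164 and 134 CPM in NN. Its difference of -2.97 ± 0.87 did not pass (adjusted p = 0.0808), and it passed without PP replicate 11 (adjusted p = 0.0208). Hoxa10 was at 19.9, 27 and 37.6 CPM in NP and 6.5, 16.5 and 11.9 CPM in PP, with -1.27 ± 0.36 here and -1.31 ± 0.36 with MCJ deficiency (adjusted p = 0.0536 and 0.0848). Which segment of the colon each library came from is not given in the labels, and its part in these values was not tested.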
